A study of Arabidopsis thaliana with 6 samples.

Results

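The marneral and thalianol gene clusters of Arabidopsis thaliana are groups of neighbouring genes on chromosome 5 that make root triterpenes, and the arabidiol and baruol synthase genes form a similar locus on chromosome 4. The set comprised 10 genes chosen by locus identifier, out of 32678 genes in the deposited count table: 3 of the marneral cluster, 4 of the thalianol cluster and 3 of the arabidiol and baruol locus. Of the 10, 8 were among the 17720 genes with enough counts to be tested. Their differences between genotypes were known when the genes were chosen, so those differences are described here without a p-value. Transcripts had been counted by RNA sequencing of whole dissected root meristems: 3 libraries labelled papl1-1papl2, also named cog1-6cdf4, were compared with 3 libraries labelled WT (Col0). The double mutant carries lesions in a pair of genes for Dof transcription factors, which bind DNA through a zinc finger. Seedlings of both genotypes were 5 days old and had grown on agar plates of Murashige and Skoog medium with sucrose under long days, and meristems were cut off by hand. The 3 replicates of each genotype were those with the best RNA, and the labels do not say whether they came from separate plates or days, so p-values measure only the spread between these samples, which may be technical.

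Triterpenes start from oxidosqualene, the product of the mevalonate pathway that also feeds sterol synthesis. An oxidosqualene cyclase folds it into a scaffold such as marneral, thalianol, arabidiol or baruol, and cytochrome P450 enzymes, acyltransferases and dehydrogenases then modify the scaffold. In Arabidopsis the cyclase and several of its modifying enzymes sit side by side in the genome, are transcribed mainly in roots, and are known targets of Polycomb repression and of the histone variant H2A.Z. Thalianol-derived triterpenes are known to shape the bacteria around the root, and marneral synthase is known from mutants with altered growth and membranes.

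Library totals lay between 17849704 and 20914576 counts, so that 3 counts, taken as the floor of detection for counting error only, corresponded to 0.143 to 0.168 CPM (counts scaled to the library total). Values below are CPM with the TMM scaling of edgeR (trimmed mean of M-values) unless given per kilobase of exon. The mutated loci, both annotated as Dof-type zinc finger genes, were higher in the libraries labelled as mutant. AT1G29160 had 21.8, 20.2 and 16.5 CPM in the libraries labelled papl1-1papl2, against 12.6, 10.9 and 11.0 CPM in those labelled WT, and AT2G34140 had 5.50, 6.27 and 6.20 CPM in papl1-1papl2, against 3.64, 4.56 and 3.86 CPM in WT. Counts per gene do not tell intact from disrupted transcripts, so every direction below rests on the labels. All 7 markers of the root meristem had counts in every library, with WOX5 at 2 counts, under the floor, in WT replicate 1, and they summed to 284 to 327 CPM in the libraries labelled papl1-1papl2 and 289 to 302 CPM in those labelled WT. Replicate 3 labelled papl1-1papl2 stood apart from the rest on the second principal component of all tested genes (a score of 34.2, where the other papl1-1papl2 libraries had -28.0 and -17.7 and the WT libraries 2.01 to 6.50).

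Promoters are shown for both members of the marneral cluster that were lower in papl1-1papl2, for the thalianol cyclase, and for the acyltransferase gene that was higher. Each is the 250 bases before the annotated gene start in the TAIR10.1 assembly, read 5′ to 3′ on the strand of the gene, and capitals mark AAAG or its complement CTTT, the core letters that Dof factors bind. The windows are chr5:17053203-17053452 on the plus strand for MRN1, chr5:17033801-17034050 on the minus strand for CYP71A16, chr5:19456587-19456836 on the plus strand for THAS1 and chr5:19428638-19428887 on the plus strand for AT5G47980.
MRN1: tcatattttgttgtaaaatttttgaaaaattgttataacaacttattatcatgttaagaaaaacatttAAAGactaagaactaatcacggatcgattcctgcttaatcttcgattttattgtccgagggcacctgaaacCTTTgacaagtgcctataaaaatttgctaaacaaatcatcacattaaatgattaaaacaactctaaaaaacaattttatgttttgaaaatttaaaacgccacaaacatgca
CYP71A16: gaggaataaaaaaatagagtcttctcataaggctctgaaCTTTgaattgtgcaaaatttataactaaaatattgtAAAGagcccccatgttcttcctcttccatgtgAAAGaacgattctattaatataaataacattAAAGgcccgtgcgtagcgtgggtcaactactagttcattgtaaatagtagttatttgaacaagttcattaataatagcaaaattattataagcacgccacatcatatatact
THAS1: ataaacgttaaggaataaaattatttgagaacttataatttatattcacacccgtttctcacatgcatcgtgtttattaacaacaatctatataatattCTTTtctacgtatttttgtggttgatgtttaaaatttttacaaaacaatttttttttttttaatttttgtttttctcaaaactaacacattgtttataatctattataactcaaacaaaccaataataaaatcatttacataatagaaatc
AT5G47980: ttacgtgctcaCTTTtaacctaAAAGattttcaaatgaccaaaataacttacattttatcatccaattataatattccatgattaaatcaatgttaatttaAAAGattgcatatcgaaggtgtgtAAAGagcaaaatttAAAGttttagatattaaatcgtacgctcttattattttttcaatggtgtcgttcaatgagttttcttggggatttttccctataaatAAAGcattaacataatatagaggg

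Counted on both strands, AAAG occurred 2 times in the MRN1 window, 4 times in that of CYP71A16, 1 time in that of THAS1 and 6 times in that of AT5G47980. Over all 10 members it occurred between 1 and 7 times. The letters are common: 26885 of 27443 windows of the same length held them (98%), with a median of 4 matches, and 90.5% of windows held at least as many as MRN1 and 24.3% at least as many as AT5G47980. A match describes letters in these windows and is no evidence of binding.

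Among the oxidosqualene cyclases, marneral synthase was lower in the libraries labelled papl1-1papl2, while the thalianol and baruol synthases overlapped between the genotypes and arabidiol synthase was at the floor. MRN1 (AT5G42600, chromosome 5, 17053453 to 17058245, plus strand, 14 exons) encodes marneral synthase. It had 4.88, 5.49 and 5.36 CPM in the libraries labelled papl1-1papl2, from 102, 99 and 96 counts, against 13.9, 9.57 and 13.7 CPM in those labelled WT, from 264, 193 and 287 counts. All 3 values of the mutant label lay below all 3 of WT, and the lowest WT library, replicate 2, was still well above the highest papl1-1papl2 library. The means were 5.24 ± 0.321 CPM in papl1-1papl2 and 12.4 ± 2.44 CPM in WT (SD, n = 3 each), 2.36-fold lower in the mutant label, with a log2 fold change of -1.24 (SE 0.16). In a bulk sample, fewer cells that express a gene and less RNA per cell cannot be told apart.

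THAS1 (AT5G48010, chromosome 5, 19456837 to 19461706, plus strand, 14 exons) encodes thalianol synthase. It had 26.8, 21.9 and 15.5 CPM in the libraries labelled papl1-1papl2, against 28.7, 22.0 and 26.9 CPM in those labelled WT, and the genotypes overlapped. The means were 21.4 ± 5.68 CPM in papl1-1papl2 and 25.9 ± 3.44 CPM in WT (SD, n = 3 each), with a log2 fold change of -0.27 (SE 0.18). Most of the gap came from replicate 3 labelled papl1-1papl2, the library that stood apart. Leaving it out gave a log2 fold change of -0.09 (SE 0.12).

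BARS1 (AT4G15370, chromosome 4, 8773730 to 8779685, minus strand) encodes baruol synthase and had the widest spread of the 8 tested members. It had 1.96, 1.72 and 3.63 CPM in the libraries labelled papl1-1papl2, against 3.58, 1.79 and 1.95 CPM in those labelled WT. One library of each genotype, replicate 3 of papl1-1papl2 and replicate 1 of WT, stood at about the same high level, and the means were equal at 2.44 CPM (log2 fold change 0.00, SE 0.36). Leaving out the high papl1-1papl2 library gave -0.40 (SE 0.33) on the log2 scale, and leaving out the high WT library gave 0.38 (SE 0.37). PEN1 (AT4G15340, chromosome 4, 8754440 to 8760600, minus strand), which encodes arabidiol synthase, had 1, 0 and 0 counts in the libraries labelled papl1-1papl2, against 0, 2 and 1 counts in those labelled WT. It was not tested, and no fold is given because both genotypes were at or under 3 counts per library.

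The plot of cyclase levels sets these against the rest of the family per kilobase of exon, the scale on which genes can be compared. CAS1, cycloartenol synthase, the cyclase of sterol synthesis, was the most abundant, at 83.7 CPM per kilobase in papl1-1papl2 and 85.8 in WT, with a log2 fold change of -0.04 (SE 0.06). LAS1, lanosterol synthase, had 3.77 CPM per kilobase in papl1-1papl2 and 4.43 in WT (log2 fold change -0.24, SE 0.17, and -0.44, SE 0.14, without papl1-1papl2 replicate 3), and LUP2, lupeol synthase 2, had 2.48 in papl1-1papl2 and 2.49 in WT (log2 fold change -0.01, SE 0.15). Of the 10 cyclases outside the set, 5 were tested and 0 were called by edgeR. At an unadjusted p under 0.05, which 2823 of all 17720 tested genes passed, the count was 1, and with DESeq2 it was 0. The 1 was CAMS1, camelliol C synthase, with 7.75, 5.99 and 6.59 CPM in papl1-1papl2, against 4.74, 5.36 and 5.57 CPM in WT. Their median log2 fold change was -0.04, beside 0.00 over all tested genes. Of the untested ones, LUP5, PEN3 and AT3G29255 had no counts in any library.

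**Figure D1:**
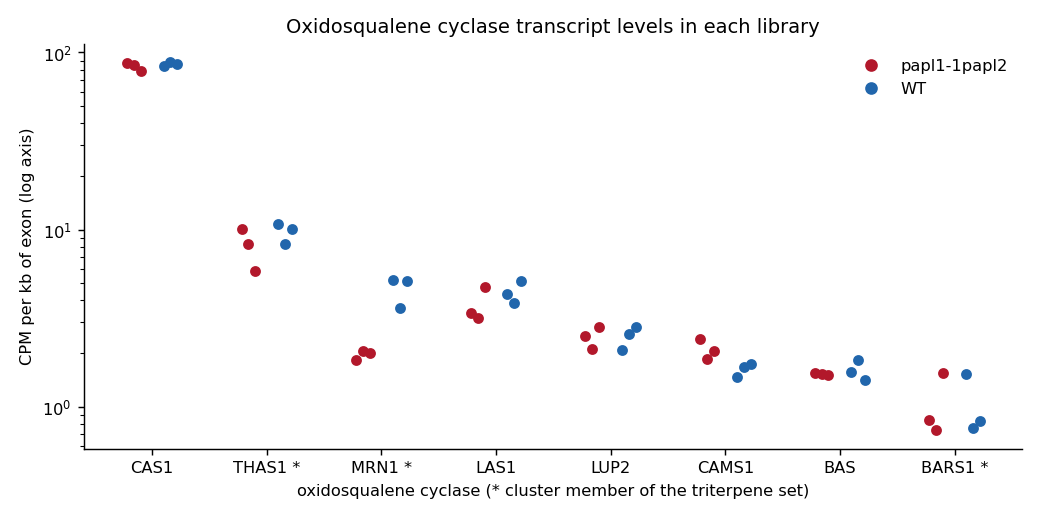
Transcript levels of the tested oxidosqualene cyclases in CPM per kilobase of exon on a log axis, 1 point per library, with papl1-1papl2 (red) to the left of WT (blue) and an asterisk on members of the triterpene set. For MRN1 the papl1-1papl2 points (1.83 to 2.06) lie below the WT points (3.59 to 5.21), and those of THAS1 and BARS1 overlap.

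Of the P450 genes, 1 in each chromosome 5 cluster was lower in every library labelled papl1-1papl2 than in any labelled WT, by less than MRN1. Of all tested genes, 9.8% were separated in this direction. Neither of these P450 genes, CYP71A16 and CYP708A2, was called in the main edgeR fit. CYP71A16 (AT5G42590, chromosome 5, 17031024 to 17033800, minus strand, 4 exons) encodes marneral oxidase. It had 27.4, 26.8 and 26.6 CPM in the libraries labelled papl1-1papl2, against 37.2, 31.2 and 33.1 CPM in those labelled WT. The papl1-1papl2 libraries lay within 1 CPM of each other and below the WT libraries, with means of 26.9 ± 0.397 CPM in papl1-1papl2 and 33.8 ± 3.02 CPM in WT (SD, n = 3 each) and a log2 fold change of -0.33 (SE 0.08). Its counts, 476 to 572 in papl1-1papl2 and 630 to 705 in WT, were the deepest of the marneral cluster.

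CYP705A12 (AT5G42580, chromosome 5, 17023502 to 17025361, minus strand, 2 exons), the other P450 gene of the marneral cluster, had 2.20, 2.11 and 3.52 CPM in the libraries labelled papl1-1papl2, against 2.21, 2.78 and 2.76 CPM in those labelled WT. The genotypes overlapped around means of 2.61 ± 0.79 CPM in papl1-1papl2 and 2.58 ± 0.321 CPM in WT (SD, n = 3 each), and the highest value was again that of replicate 3 labelled papl1-1papl2. On 38 to 63 counts in each library, the genotypes differed by 0.01 (SE 0.25) on the log2 scale, and by -0.27 (SE 0.23) with that library left out.

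CYP708A2 (AT5G48000, chromosome 5, 19444103 to 19447866, minus strand, 9 exons) encodes thalianol hydroxylase. It had 21.9, 18.1 and 20.5 CPM in the libraries labelled papl1-1papl2, against 30.7, 23.7 and 27.0 CPM in those labelled WT. The genotypes did not overlap, although papl1-1papl2 replicate 1 and WT replicate 2 were close. The means were 20.1 ± 1.92 CPM in papl1-1papl2 and 27.1 ± 3.48 CPM in WT (SD, n = 3 each), with a log2 fold change of -0.43 (SE 0.11). CYP708A2 was the only member with exon stretches of 50 bases found elsewhere in the genome, 57 of 1774 (3.21%), so a small part of its reads may have been counted otherwise.

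CYP705A5 (AT5G47990, chromosome 5, 19434758 to 19436749, plus strand, 2 exons), whose enzyme desaturates the hydroxylated thalianol, had 29.2, 26.9 and 26.3 CPM in the libraries labelled papl1-1papl2, against 31.9, 25.0 and 31.6 CPM in those labelled WT. The genotypes overlapped, since WT replicate 2 was the lowest of all 6 libraries, and the log2 fold change was -0.10 (SE 0.10). CYP705A1 (AT4G15330, chromosome 4, 8751320 to 8753297, minus strand), whose enzyme cleaves arabidiol to a volatile homoterpene, had 0 counts in each library labelled papl1-1papl2, against 1 count in each labelled WT. Like PEN1 it was at or under 3 counts per library in both genotypes and was not tested.

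The acyltransferase gene of the thalianol cluster ran the other way. AT5G47980 (chromosome 5, 19428888 to 19430517, plus strand, 1 exon), annotated as an HXXXD-type acyltransferase, had 4.93, 5.27 and 3.74 CPM in the libraries labelled papl1-1papl2, against 2.85, 3.17 and 3.38 CPM in those labelled WT. All 3 values of the mutant label lay above those of WT, with papl1-1papl2 replicate 3 only just so. The means were 4.65 ± 0.8 CPM in papl1-1papl2 and 3.13 ± 0.27 CPM in WT (SD, n = 3 each), with a log2 fold change of 0.57 (SE 0.19), and counts were low, at 67 to 103 in papl1-1papl2 and 54 to 71 in WT. AT5G47980 was not called in the main edgeR fit. Leaving out replicate 3 of the mutant label gave 0.69 (SE 0.18) on the log2 scale, and AT5G47980 was then called. In that fit 6.48% of all tested genes were called, against 2.76% in the main fit. It was the only 1 of 10 alternative fits that called AT5G47980, whose log2 fold change over the 10 lay between 0.47 and 0.69.

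Of the 8 tested members, 1 (MRN1) was called at 0.05 by edgeR (quasi-likelihood test, adjusted over all tested genes) and was lower in papl1-1papl2, beside 0.525% of all tested genes called lower, 2.23% called higher and 2.76% called in either direction. In 3 members (MRN1, CYP71A16 and CYP708A2) all papl1-1papl2 libraries were below all WT libraries, beside 9.8% of tested genes, and in 1 (AT5G47980) all were above, beside 11.7%. The other 4 overlapped. The median log2 fold change of the 8 was -0.18, beside 0.00 over all tested genes. Because the members were chosen with these differences known, nothing is read from the counts.

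**Figure D2:**
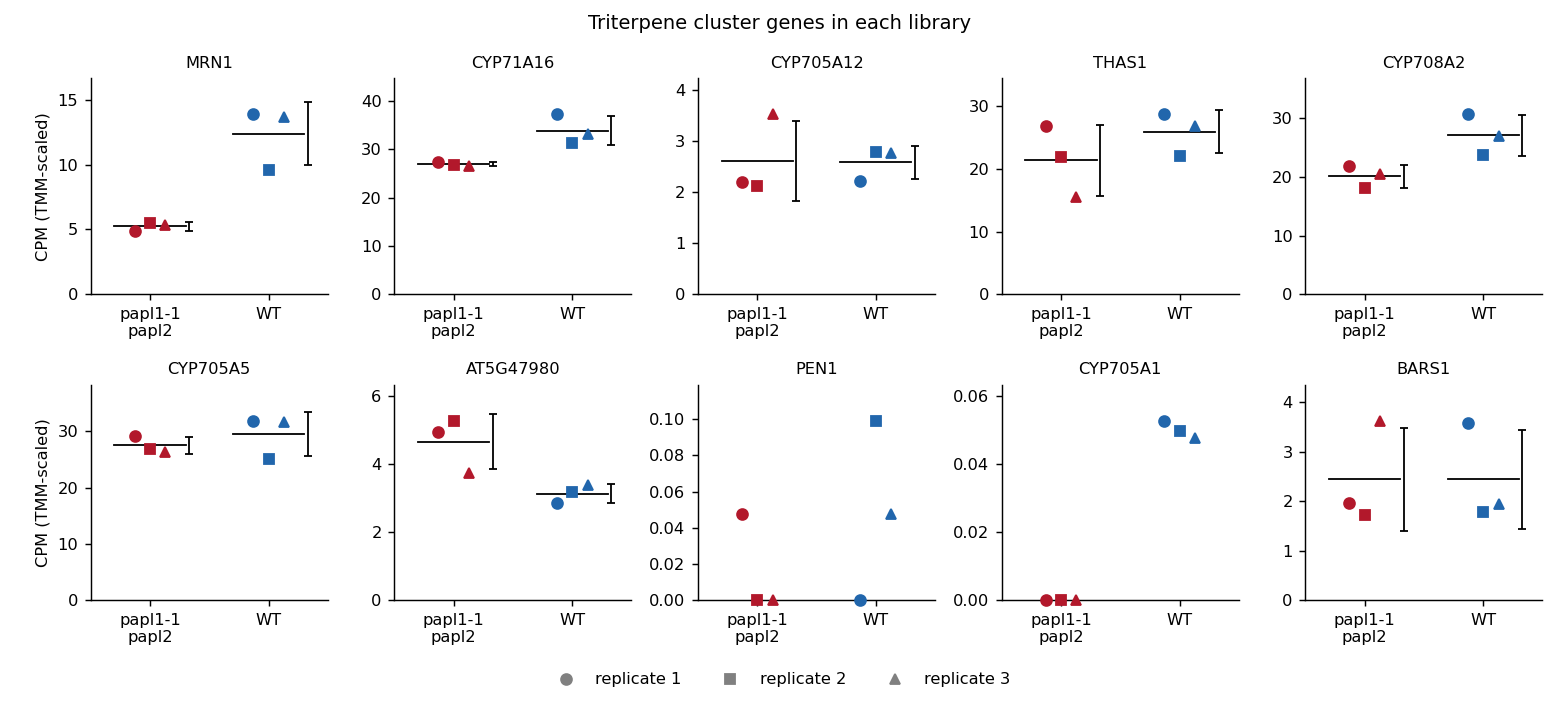
TMM-scaled CPM of the 10 members in each library, with papl1-1papl2 (red) left of WT (blue) and marker shapes for replicates 1 to 3. Horizontal lines are means and bars to their right are SDs over 3 libraries, drawn for the 8 tested members. MRN1, CYP71A16 and CYP708A2 lie lower in papl1-1papl2 and AT5G47980 higher, without overlap.

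The order of the members by level per kilobase of exon was the same at the top in both genotypes and differed in the middle. CYP71A16 came first, at 14.6 ± 0.215 CPM per kilobase in papl1-1papl2 and 18.3 ± 1.64 in WT, followed by CYP705A5 at 14.4 ± 0.805 in papl1-1papl2 and 15.5 ± 2.03 in WT (SD, n = 3 each). CYP708A2 had 9.1 ± 0.867 in papl1-1papl2 and 12.2 ± 1.57 in WT, and THAS1 had 8.05 ± 2.14 in papl1-1papl2 and 9.73 ± 1.29 in WT. In papl1-1papl2 the libraries of CYP71A16 and CYP705A5 overlapped, and so did those of CYP708A2 and THAS1. In WT, CYP71A16 stood clear of CYP705A5, while CYP705A5 overlapped CYP708A2 and CYP708A2 overlapped THAS1.

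MRN1 and AT5G47980 swapped places. This restates their differences, which were known when the genes were chosen, so nothing is read from it. In papl1-1papl2, AT5G47980 followed THAS1, at 2.85 ± 0.491 CPM per kilobase, and MRN1 came after it, at 1.96 ± 0.12, with no overlap. In WT, MRN1 followed THAS1, at 4.64 ± 0.914, and AT5G47980 came after it, at 1.92 ± 0.166, again with no overlap. CYP705A12 (1.47 ± 0.445 in papl1-1papl2 and 1.46 ± 0.181 in WT) and BARS1 (1.04 ± 0.446 in papl1-1papl2 and 1.04 ± 0.425 in WT) followed and overlapped each other in both genotypes. The MRN1 level per kilobase also overlapped that of CYP705A12 in papl1-1papl2, which it did not in WT.

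Ratios of counts within a library do not depend on how libraries are scaled. MRN1 had 0.178, 0.205 and 0.202 counts per count of its cluster neighbour CYP71A16 in the libraries labelled papl1-1papl2, against 0.374, 0.306 and 0.413 in those labelled WT. The ratio did not overlap between the genotypes, with a mean log2 difference of -0.90 (papl1-1papl2 minus WT). Set against the cyclase of the thalianol cluster, MRN1 had 0.182, 0.251 and 0.347 counts per count of THAS1 in papl1-1papl2, against 0.485, 0.435 and 0.509 in WT, again without overlap.

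Within the thalianol cluster the hydroxylase was set against the desaturase in the same way. CYP708A2 had 0.748, 0.671 and 0.779 counts per count of CYP705A5 in papl1-1papl2, against 0.960, 0.947 and 0.855 in WT. These did not overlap, with a log2 ratio difference of -0.33, but neither gene was called in the main fit. How often ratios of other gene pairs separate was not computed, and the members were chosen with their differences known. Nothing is therefore read from this ratio or from those of MRN1. The ratio of THAS1 to CYP705A5 overlapped, at 0.917, 0.813 and 0.588 in papl1-1papl2, against 0.898, 0.879 and 0.851 in WT, and so did the ratio of CYP71A16 to CYP708A2, at 1.25, 1.48 and 1.30 in papl1-1papl2, against 1.21, 1.32 and 1.23 in WT.

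Summed over its 3 members, the marneral cluster had 34.4, 34.4 and 35.5 CPM in the libraries labelled papl1-1papl2, against 53.3, 43.6 and 49.5 CPM in those labelled WT (34.8 ± 0.597 CPM in papl1-1papl2 and 48.8 ± 4.88 CPM in WT, SD, n = 3 each). The sums did not overlap, and CYP71A16 held most of each. The members were chosen with their differences known, so nothing is read from the sums. The thalianol cluster of 4 members had 82.8, 72.2 and 66.0 CPM in papl1-1papl2, against 94.1, 73.9 and 88.8 CPM in WT (73.7 ± 8.49 CPM in papl1-1papl2 and 85.6 ± 10.5 CPM in WT), and these overlapped. The arabidiol and baruol locus, where nearly all counts were from BARS1, had 2.01, 1.72 and 3.63 CPM in papl1-1papl2, against 3.64, 1.93 and 2.05 CPM in WT.

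The genes that flank the clusters were examined by locus number. Counts at an unadjusted p under 0.05, here and in the lists below, stand beside 2823 of all 17720 tested genes. Calls without papl1-1papl2 replicate 3 stand beside 6.48% of all tested genes called in that fit, and 2.76% in the main fit. The marneral members span 34.7 kb (chromosome 5, 17023502 to 17058245), with 19.7 kb between CYP71A16 and MRN1, and the thalianol members span 32.8 kb (chromosome 5, 19428888 to 19461706), with gaps of 4.24, 7.35 and 8.97 kb. Of 8 tested neighbours of the marneral cluster, 0 were called by edgeR, 0 passed an unadjusted p under 0.05 and 0 were called by DESeq2. Their log2 fold changes lay between -0.06 and 0.21, with a median of 0.05. Among them XRN2, a nuclear exoribonuclease gene, was at 0.04, and AT5G42570 and AT5G42620, which lie on either side of the cluster, were at 0.02 and 0.10. The MRN1 log2 fold change of -1.24 lay outside the range of the 8 genes around it. MRN1 was chosen with its difference known and the neighbours by locus number, so nothing is read from this.

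Of 10 tested neighbours of the thalianol cluster, 0 were called by edgeR, 1 passed an unadjusted p under 0.05 and 0 were called by DESeq2, with log2 fold changes of -0.11 to 0.30 and a median of 0.01. Without papl1-1papl2 replicate 3, edgeR called 1. AT5G47930, a ribosomal protein gene, was at -0.04 (-0.14 without that library), AT5G48020, next to THAS1, at -0.01, and GFA2 at 0.00. The log2 fold changes of CYP708A2 (-0.43), THAS1 (-0.27) and AT5G47980 (0.57) lay outside that range and that of CYP705A5 (-0.10) within it, but without that library THAS1 was at -0.09. These members too were chosen with their differences known, so nothing is read from their place against the neighbours. Around the arabidiol and baruol genes, 0 of 12 tested neighbours were called by edgeR, 1 passed an unadjusted p under 0.05 and 0 were called by DESeq2, and without papl1-1papl2 replicate 3 edgeR called 1. The most abundant, PUX5, ATB' GAMMA and CYP702A2, were at -0.11, -0.10 and 0.09. Log2 fold changes of the 12 were spread from -0.93 to 0.71 (median -0.10), and 9 of the 12 were at most 0.3 in size. The widest were P450 genes with large errors, CYP705A4 at -0.93 (SE 0.47) and CYP702A3 at 0.71 (SE 0.35), named here for their size.

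**Figure D3:**
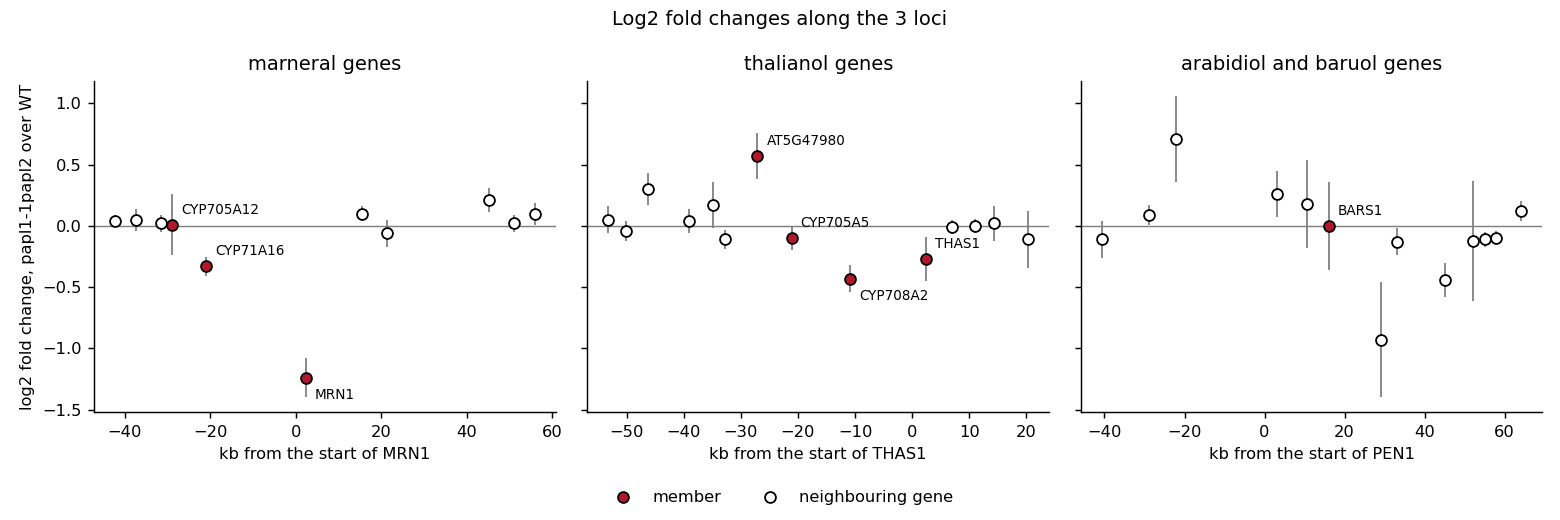
Log2 fold change (papl1-1papl2 over WT, bars are SE) of tested genes against distance in kilobases from the start of the cyclase gene named under each panel, with members filled and neighbours open. MRN1 (-1.24) and CYP71A16 (-0.33) lie below all 8 marneral neighbours, and the neighbours of the thalianol cluster stay between -0.11 and 0.30. Members were chosen with their differences known and neighbours by locus number.

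Other genes that act on thalianol-derived compounds were followed next. Of 3 genes for thalianol-modifying enzymes that lie outside the set, 1 was called, and it fell in papl1-1papl2. AT1G66800, annotated as an NAD(P)-binding Rossmann-fold protein, had 19.4, 18.9 and 24.4 CPM in the libraries labelled papl1-1papl2, against 31.6, 28.0 and 32.3 CPM in those labelled WT. The genotypes did not overlap, with means of 20.9 ± 3.03 CPM in papl1-1papl2 and 30.7 ± 2.31 CPM in WT (SD, n = 3 each) and a log2 fold change of -0.56 (SE 0.11). The edgeR adjusted p was 0.0297 over all tested genes, and over the alternatives it ranged from 0.00082 to 0.159. It missed the threshold in 5 of 10, on leaving out any single library other than papl1-1papl2 replicate 3. The list was chosen with earlier results of these data known, so this p is no independent support. Another dehydrogenase-like gene, SDR4 (AT3G29250), had 77.2, 70.6 and 56.1 CPM in papl1-1papl2, against 80.3, 70.1 and 74.9 CPM in WT, which overlapped (log2 fold change -0.14, SE 0.11). The acyltransferase gene AT5G47950, also counted among the 10 thalianol neighbours, had 25.1, 25.9 and 20.7 CPM in papl1-1papl2, against 23.0, 25.0 and 21.6 CPM in WT (log2 fold change 0.04, SE 0.10). Unlike AT5G47980, it overlapped between the genotypes. At an unadjusted p under 0.05 the count in this list was 1, and DESeq2 called 1.

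No gene for the supply of oxidosqualene was called. Of 18 tested genes from acetyl-CoA through mevalonate to oxidosqualene, 0 were called by edgeR, 0 passed an unadjusted p under 0.05 and 0 were called by DESeq2, with a median log2 fold change of -0.05 (range -0.50 to 0.12). HMGS, which makes the precursor of mevalonate, had 349 ± 12 CPM in papl1-1papl2 and 375 ± 4.51 CPM in WT (SD, n = 3 each, log2 fold change -0.11). ACAT2, the thiolase of the first step, was at -0.10, and AT1G31910, a kinase-family gene, at -0.04. Of 12 tested genes of sterol synthesis after cycloartenol, 0 were called by edgeR, 1 passed an unadjusted p under 0.05 and 1 was called by DESeq2, with a median of -0.01 (range -0.25 to 0.05). The edgeR count was 2 without papl1-1papl2 replicate 3, and 1 without papl1-1papl2 replicate 1 or with no filter on low counts. The gene called by DESeq2 was SMT3 (AT1G76090), a sterol methyltransferase gene, with 265, 239 and 235 CPM in papl1-1papl2, against 291, 293 and 294 CPM in WT (log2 fold change -0.25, SE 0.06). SMT1, CYP51G1 and DWF1, the most abundant of that list, had log2 fold changes of 0.02, -0.04 and -0.01.

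Related P450 genes outside the set belong to the CYP705A, CYP708A, CYP702A and CYP716A families, many of which lie beside triterpene synthases. Of 22 tested, 0 were called by edgeR and 0 by DESeq2, with a median log2 fold change of -0.03 (range -0.93 to 0.71). At an unadjusted p under 0.05 the count was 4, beside 2823 of all 17720 tested genes. The most abundant, CYP705A30, CYP705A19 and CYP705A8, were at -0.13, -0.14 and -0.06, and CYP705A30 was at -0.22 without papl1-1papl2 replicate 3. H2A.Z and Polycomb are chromatin systems known to act on these clusters. Of 13 tested genes linked to either, REF6 among them, 0 were called by edgeR, 0 passed an unadjusted p under 0.05 and 0 were called by DESeq2. Their median was 0.01 (range -0.13 to 0.11), with the H2A.Z genes HTA9 and HTA11 at -0.02 and 0.11 and the Polycomb methyltransferase gene CLF at -0.02.

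Markers of root cell types that a cut root tip could hold were summed beside the members. Of 9 tested root hair markers, 0 were called by edgeR, 1 passed an unadjusted p under 0.05 and 1 was called by DESeq2, and all 9 had log2 fold changes above 0 (median 0.30). The gene called by DESeq2 was RSL4, a bHLH factor of root hair growth, with 4.16, 3.22 and 0.279 CPM in papl1-1papl2, against 0.738, 0.595 and 0.429 CPM in WT, which overlapped. Without papl1-1papl2 replicate 3, edgeR called 1 of the root hair markers. The 13 listed root hair genes summed to 287, 261 and 174 CPM in the libraries labelled papl1-1papl2, against 216, 221 and 239 CPM in those labelled WT, and CSLD3 alone held 215, 214 and 159 CPM in papl1-1papl2, against 178, 185 and 202 CPM in WT. None of the 13 was at 0 in all libraries. The 5 root cap markers summed to 196, 210 and 245 CPM in papl1-1papl2, against 231, 225 and 229 CPM in WT. Of these, 0 were called by edgeR or DESeq2, 2 passed an unadjusted p under 0.05 and all 5 had log2 fold changes below 0. Without papl1-1papl2 replicate 3, edgeR called 2 of the 5. In that setting it called 6.48% of all tested genes, against 2.76% in the main fit. Replicate 3 labelled papl1-1papl2, where THAS1 was lowest, had the lowest root hair sum and the highest root cap sum of its genotype, and their part in the THAS1 value was not tested.

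Of 7 tested genes of epidermal patterning, 1 fell by the edgeR test, 2 passed an unadjusted p under 0.05 and 1 was called by DESeq2. EGL3 (AT1G63650), a bHLH factor of epidermal cell fate, had 27.0, 30.7 and 29.6 CPM in the libraries labelled papl1-1papl2, against 38.2, 38.9 and 40.6 CPM in those labelled WT, without overlap. The log2 fold change was -0.43 (SE 0.07) and the edgeR adjusted p was 0.0144. The call was lost without WT replicate 1 (0.0597) or WT replicate 3 (0.0763), over a range of 0.00081 to 0.0763. This list too was chosen with earlier results of these data known, so the p of EGL3 is no independent support. The 7 genes summed to 188, 191 and 199 CPM in papl1-1papl2, against 204, 216 and 205 CPM in WT. Log2 fold changes of this list lay between -0.43 and 0.21. That of MRN1 was larger in size, but MRN1 was chosen with its difference known, so nothing is read from this. Whether MRN1 moves with the epidermis was not tested.

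Spread within a genotype was described next. It enters the call of a gene, so it is not independent of how the members were chosen, and the spread that counting alone gives is larger at lower counts. CYP71A16 varied by 1.47% in papl1-1papl2 and 8.93% in WT (coefficient of variation over 3 libraries), where counting alone gives 4.43% and 3.84%. MRN1 varied by 6.13% in papl1-1papl2 and 19.7% in WT, where counting gives 10.1% and 6.35%. In papl1-1papl2 both were below the counting value. THAS1 varied by 26.5% in papl1-1papl2, where counting gives 4.93%, and by 13.3% in WT. Of the 8 tested members BARS1 varied most, by 42.7% in papl1-1papl2 and 40.7% in WT, where counting gives 14.8% and 14.4%.

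Deviations of log2 CPM from the genotype mean showed which members moved together among replicates. In WT replicate 2, MRN1 (-0.35), CYP71A16 (-0.11), THAS1 (-0.22), CYP708A2 (-0.19), CYP705A5 (-0.23) and BARS1 of chromosome 4 (-0.36) lay below the WT mean. In WT replicate 1 the same genes lay above it, with BARS1 at 0.60. CYP705A12 (0.11 in WT replicate 2 and -0.21 in WT replicate 1) and AT5G47980 (0.02 and -0.13) went the other way. In papl1-1papl2 replicate 3, CYP705A12 (0.46) and BARS1 (0.63) lay above the mean of that genotype and THAS1 (-0.43) and AT5G47980 (-0.29) below it. Over the 6 libraries, which have 4 degrees of freedom after the genotype means, Pearson's r was 0.79 between CYP708A2 and CYP705A5. It was 0.70 between THAS1 and CYP705A5 and 0.70 between MRN1 and CYP71A16, but -0.41 between CYP708A2 and AT5G47980 of the same cluster. Some pairs of different clusters were as high, at 0.82 between CYP71A16 and CYP708A2, 0.79 between MRN1 and CYP705A5 and 0.78 between CYP71A16 and CYP705A5.

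As a description with no test, the median r was 0.53 over the 6 pairs within the thalianol cluster (range -0.41 to 0.79), -0.15 over the 3 pairs within the marneral cluster (-0.49 to 0.70) and 0.07 over the 12 pairs between the clusters (-0.86 to 0.82), beside 0.00 over all pairs of tested genes. Without replicate 3 labelled papl1-1papl2 these medians were 0.29, -0.57 and 0.57. CYP705A12 ran against THAS1 (r = -0.86) and BARS1 against AT5G47980 (r = -0.92), and all points of a pair share library, depth and scaling.

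**Figure D4:**
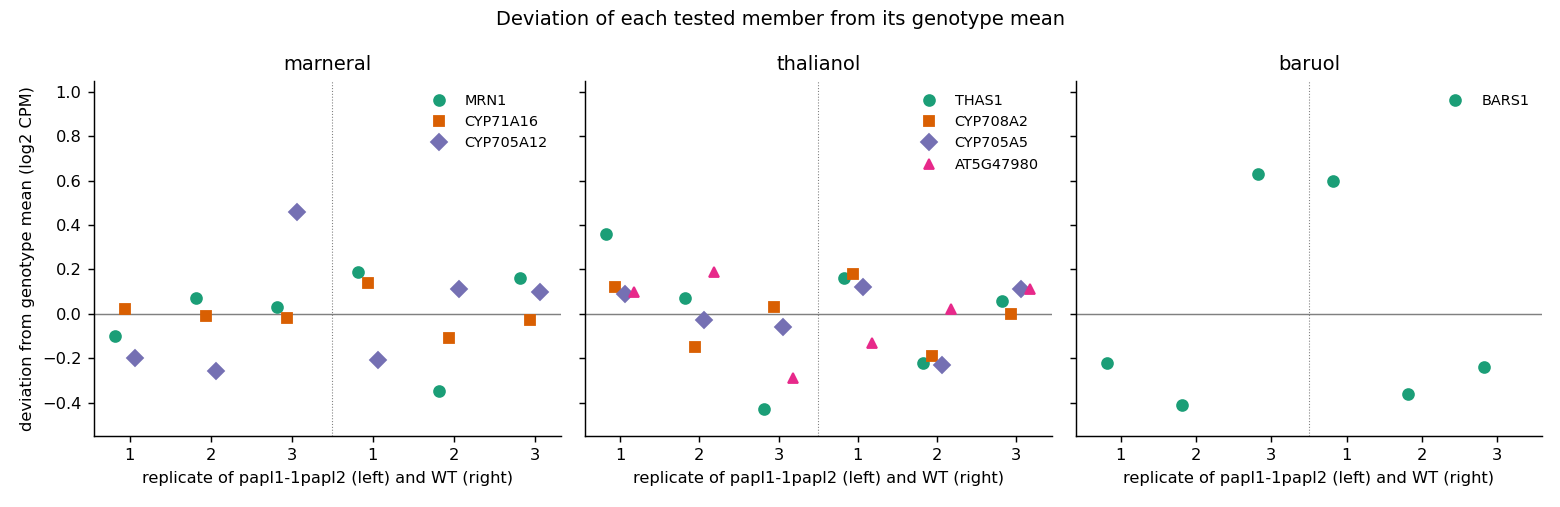
Deviation of log2 CPM of each tested member from the mean of its genotype, by library, with papl1-1papl2 left and WT right of the dotted line in each panel. In WT replicate 2 MRN1, CYP71A16, THAS1, CYP708A2, CYP705A5 and BARS1 lie below 0. In papl1-1papl2 replicate 3 CYP705A12 and BARS1 lie above 0 (0.46 and 0.63) and THAS1 below (-0.43).

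Of 13773 genes with a mean of at least 5 CPM, those whose deviations were most like the mean of the marneral members over the 6 libraries were DRB4 (r = 0.999), TSO2 (0.998), PMM (0.996), AT2G07180 (0.995) and ATVPS33 (0.993). Those most like the mean of the thalianol members were MEE32 (0.998), AT4G30000 (0.998), AT3G28710 (0.997), AT1G26640 (0.995) and AT4G32030 (0.995). Only 4 degrees of freedom lie behind each r, all points share library, depth and scaling, and the genes are named as a description. The marneral members did not share a profile (pairwise r of 0.70, -0.15 and -0.49), so likeness to their mean is not likeness to each member. Without papl1-1papl2 replicate 3, r of the 10 genes was between 0.99 and 1.00. They had been picked for their r over all 6 libraries, so this is no independent check. In the main edgeR fit, 0 of the 10 were called between the genotypes.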

How the data were processed

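The authors deposited unnormalised read counts, whole numbers with 1 row per gene and 1 column per library. Columns were matched to samples through genotype and number in the sample titles (unmatched columns: 0). The submitters' processing notes name TopHat2, HTSeq, DESeq, DESeq2 and the TAIR10 build, without roles. Versions and the use of strand are not given in the sources used here. Strand could add reads of an antisense gene. All 10 members overlap no other gene of the RefSeq annotation named next, but overlap with the 766 identifiers missing from it was not checked. Gene symbols, exon lengths, coordinates and promoters came from the RefSeq annotation of the TAIR10.1 assembly, to which 31912 of 32678 identifiers matched and 766 did not. The 2 mutated loci were identified from general knowledge of these genes. Reads came from PCR-amplified libraries without molecular identifiers, so the floor of 3 counts covers counting error only.

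Counts were fitted in R 4.3.3 with edgeR 4.0.16 over all 6 libraries: filterByExpr (minimum count 10, minimum total 15), TMM scaling and the quasi-likelihood F test with genotype as the only term. Benjamini-Hochberg adjustment ran over 17720 tested genes, with calls at 0.05. The script was tested on simulated data. Deviations used log2 CPM with a prior count of 2. The members and lists were chosen with earlier results of these data known, from general knowledge of the pathways. Genes named were all members, the mutated loci, in each list the called genes or, where none was called in a list other than cell type markers, the 3 with the highest mean CPM, and the 5 genes most like each cluster among those with at least 5 CPM. CAMS1, WOX5, RSL4, LUP5, PEN3, AT3G29255, SMT3, SDR4, AT5G47950, CYP705A4, CYP702A3 and CSLD3 were named after their values were seen. Alternatives were DESeq2 size factors, no filter on low counts, DESeq2 1.42.0 (Wald test), a replicate block, a prior count of 0.5 and leaving out each library.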

Additional observations from a re-analysis of the deposited data

How the results depend on the processing

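Over all genes, 489 were called, 478 with DESeq2 size factors, 626 with no filter on low counts, 720 with the DESeq2 Wald test and 144 to 1164 when 1 library was left out, the lowest without WT replicate 1 and the highest without papl1-1papl2 replicate 3. Without papl1-1papl2 replicate 2 the count was 173, without WT replicate 2 it was 276 and without WT replicate 3 it was 155. The cause was not tested. A replicate block gave 259 calls, 245 of them shared with the 489. The labels give no shared plate or day, and deviations of same-numbered libraries had r of -0.00913, -0.0601 and -0.107, so the replicate numbers were not taken as pairs. Among the members, MRN1 was called in all 10 alternatives (log2 fold change -1.40 to -1.15), and 1 to 2 members were called when 1 library was left out. There were 2 called with no filter (MRN1 and CYP71A16), 2 with the DESeq2 Wald test (MRN1 and CYP708A2) and 2 without papl1-1papl2 replicate 3 (MRN1 and AT5G47980), and 1 with the replicate block. Log2 fold changes kept their sign in all 10 alternatives for CYP71A16 (-0.39 to -0.26), CYP708A2 (-0.52 to -0.33), THAS1 (-0.47 to -0.09), CYP705A5 (-0.21 to -0.04) and AT5G47980 (0.47 to 0.69). Those of CYP705A12 (-0.27 to 0.14) and BARS1 (-0.40 to 0.38) took both signs, at 31 to 68 counts per library. Depth limits PEN1 and CYP705A1, where no difference was detectable.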
